A study of Homo sapiens with 20 samples.

Results

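Very long chromatin loops, with 1 Mb or more of DNA between their anchors, were examined in Hi-C data from STAG2-mutant glioblastoma cells and their STAG2-corrected derivatives. Of the 192365 anchor pairs that were among the 100000 strongest of at least 1 cell line, 6988 (3.63%) lay at least 1000 kb apart and are called very long loops here. They were thus selected on measured loop strength and on distance, and no other property was used. H4 and 42MGBA are established human glioblastoma (GBM) cell lines that each carry a naturally occurring truncating mutation of STAG2. The mutant allele was corrected by gene editing in the derivatives H4 88-1 (from H4) and 42MGBA 53-1 (from 42MGBA), 1 per parental line, which are labelled STAG2-WT. All 4 lines were grown untreated in the same serum-containing medium. Hi-C, which measures how often pairs of DNA fragments lie together in the nucleus, was performed on 2 replicates of each line, and the replicates were pooled by the authors into 1 list of the 300000 strongest anchor pairs per line. Each value below therefore stands for 1 list, without an error between replicates, and differences between lines were described and not tested.

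STAG2 is a subunit of cohesin, the ring-shaped complex that extrudes DNA into loops until it meets barriers. The main barrier is the DNA-binding protein CTCF, which holds cohesin when the CTCF motifs of both anchors point toward each other, an arrangement called convergent. STAG1 can take the place of STAG2 in the complex, and mutations of STAG2 are recurrent in GBM. Contacts over long distances are also known between developmental genes bound by Polycomb complexes.

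The sequences that a loop anchor is known for are CTCF motifs, and they are shown first for the loops described below. An anchor is a stretch of about 5 kb made of neighbouring restriction fragments. A core motif of 12 letters was searched on both strands of the anchors, in hg19 sequence. Shown are the sites at the anchors of 9 loops that were the strongest of their neighbourhood and that held convergent motifs. The motifs were either without a mismatch or, among the 10 strongest neighbourhoods, with 1 letter off. A further loop without a mismatch met this rule, and its sites are not shown. It is named below with the other groups that held exact motifs. Each line gives 40 bases, read 5′ to 3′ on the strand on which the motif reads forward, with the motif in capitals and a letter that departs from it in lower case.
BCL6 left anchor, chr3:187458806-187458845, plus strand: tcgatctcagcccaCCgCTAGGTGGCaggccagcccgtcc
BCL6 right anchor, chr3:188672570-188672609, minus strand: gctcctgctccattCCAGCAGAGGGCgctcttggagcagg
IGFBP3 left anchor, chr7:45960128-45960167, plus strand: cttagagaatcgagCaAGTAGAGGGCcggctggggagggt
IGFBP3 right anchor, chr7:47128577-47128616, minus strand: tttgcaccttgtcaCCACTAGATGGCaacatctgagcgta
SEMA3D left anchor, chr7:83563631-83563670, plus strand: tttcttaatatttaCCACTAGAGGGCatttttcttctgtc
SEMA3D left anchor, chr7:83565552-83565591, plus strand: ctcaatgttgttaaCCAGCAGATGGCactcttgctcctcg
SEMA3D right anchor, chr7:84652568-84652607, minus strand: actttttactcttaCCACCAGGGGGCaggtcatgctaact
PLK2 left anchor, chr5:56594195-56594234, plus strand: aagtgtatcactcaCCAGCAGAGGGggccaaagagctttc
PLK2 right anchor, chr5:57756223-57756262, minus strand: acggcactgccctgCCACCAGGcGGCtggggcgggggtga
HTR7 left anchor, chr10:91553584-91553623, plus strand: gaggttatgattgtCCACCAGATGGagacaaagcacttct
HTR7 right anchor, chr10:92622844-92622883, minus strand: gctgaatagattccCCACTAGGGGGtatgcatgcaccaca
THSD7A left anchor, chr7:11467469-11467508, plus strand: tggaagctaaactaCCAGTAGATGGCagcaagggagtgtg
THSD7A right anchor, chr7:12529911-12529950, minus strand: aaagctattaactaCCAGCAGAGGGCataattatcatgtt
ZNF407 left anchor, chr18:72364510-72364549, plus strand: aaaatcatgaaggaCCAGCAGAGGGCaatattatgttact
ZNF407 right anchor, chr18:74061201-74061240, minus strand: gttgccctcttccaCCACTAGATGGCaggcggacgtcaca
NCAM2 left anchor, chr21:22376227-22376266, plus strand: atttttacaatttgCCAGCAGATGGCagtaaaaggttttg
NCAM2 right anchor, chr21:24164465-24164504, minus strand: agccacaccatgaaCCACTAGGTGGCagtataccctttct
COL12A1 left anchor, chr6:74564874-74564913, plus strand: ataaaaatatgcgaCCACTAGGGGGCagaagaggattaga
COL12A1 right anchor, chr6:75921037-75921076, minus strand: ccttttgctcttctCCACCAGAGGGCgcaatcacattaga
All left sites read forward on the plus strand and all right sites on the minus strand, which is what convergent means. The left site of BCL6 lay in an intron of BCL6 and the right site in an intron of TPRG1. The left site of IGFBP3 lay in an intron of that gene, and its right site was intergenic. Both left sites of SEMA3D were intergenic and the right site was intronic in SEMA3D. The sites at PLK2, HTR7 and COL12A1 were intergenic, and the left sites at THSD7A, ZNF407 and NCAM2 were intronic in these genes.

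The distance between the anchors of the very long loops ranged from 1000 kb to 1997 kb, with a median of 1188 kb and quartiles of 1079 kb and 1335 kb. The lists themselves ended at 1997 kb. The loop just inside the threshold lay on chromosome 9 and spanned 1000.062 kb, with strengths of 9.91 in H4, 10.8 in H4 88-1 and 5.15 in 42MGBA, and was missing from the list of 42MGBA 53-1. The loop just outside spanned 999.982 kb on chromosome 17, with strengths of 6.08, 5.41 and 4.63, respectively, and was likewise missing from the list of 42MGBA 53-1. The weakest very long loop among the 100000 strongest had a strength of 5.83 in H4 against 6.21 in H4 88-1 and 6.23 in 42MGBA against 5.81 in 42MGBA 53-1, and the next one below the threshold was 5.83, 6.21, 6.23 and 5.81, equal to it at this rounding.

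More very long loops were among the strongest of the STAG2-mutant lines than of the corrected lines. Of the 100000 strongest loops of H4, 4809 (4.81%) were very long, and of those of H4 88-1, 2594 (2.59%). Of the 100000 strongest loops of 42MGBA, 3226 (3.23%) were very long, and of those of 42MGBA 53-1, 2207 (2.21%). The count in the mutant line was thus 1.85 times that in the corrected line in the H4 pair and 1.46 times in the 42MGBA pair. Among all 300000 loops of a list, the counts were 14706 in H4 against 8107 in H4 88-1 and 10001 in 42MGBA against 6172 in 42MGBA 53-1. These counts rest on ranks within a list and do not depend on a scaling between lines. At the very top of the lists the pairs parted. Among the 1000 strongest loops, 101 were very long in H4 and 67 in H4 88-1, but only 9 in 42MGBA against 23 in 42MGBA 53-1.

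The excess in the mutant lines was not limited to loops of 1 Mb or more, and below 250 kb it was turned around. There, the corrected lines held more of the strongest loops, with 29420 in H4 against 36183 in H4 88-1 and 36251 in 42MGBA against 45049 in 42MGBA 53-1. Between 750 kb and 1000 kb, the count in the mutant line was 1.58 times that in the corrected line in the H4 pair and 1.51 times in the 42MGBA pair. From 1000 kb upward, this quotient lay between 1.66 and 2.18 in all 7 distance ranges of the H4 pair, and between 1.21 and 2.49 in those of the 42MGBA pair. It was highest in both pairs between 1400 kb and 1500 kb, where 332 loops of H4 faced 152 of H4 88-1 and 169 of 42MGBA faced 68 of 42MGBA 53-1. In the last range, which ended at 2000 kb, the 42MGBA lines held more loops than the H4 lines, with 227 in 42MGBA and 177 in 42MGBA 53-1 against 103 in H4 and 53 in H4 88-1.

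**Figure D1:**
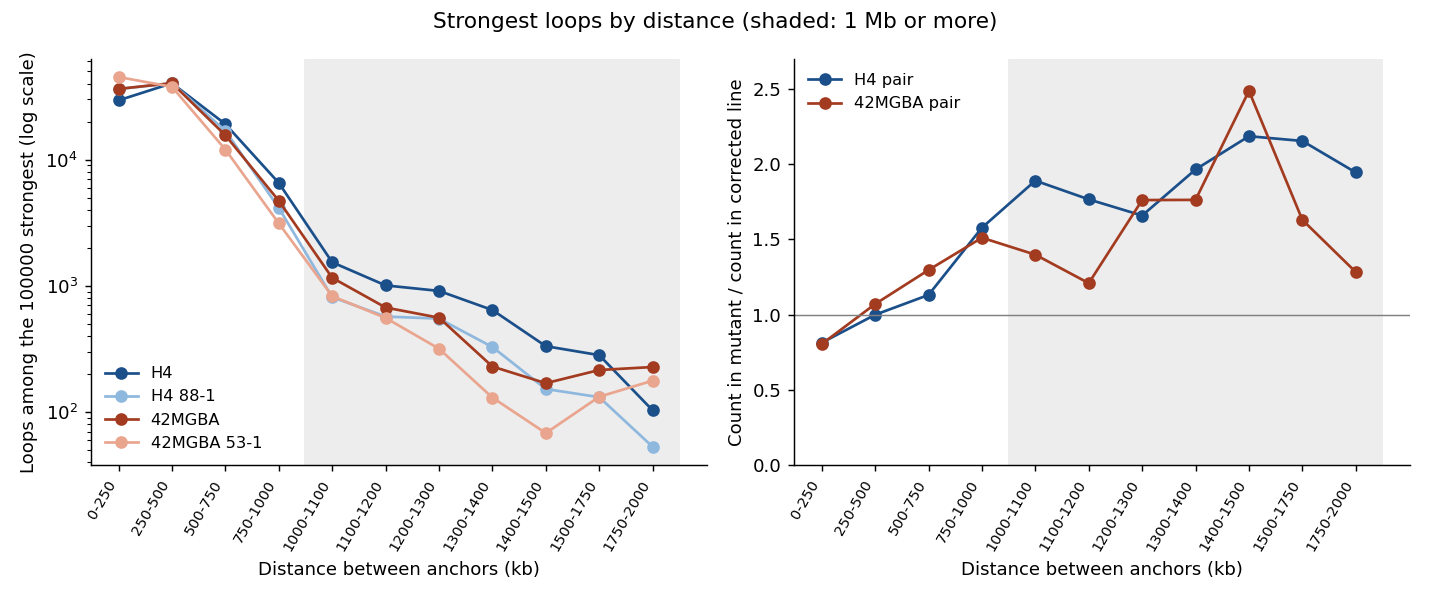
Left, number of loops among the 100000 strongest of each cell line (log scale) by the distance between anchors in kb; right, the count in the mutant line divided by that in the corrected line, with the grey line at equal counts. The ranges are 250 kb wide below 1000 kb and from 1500 kb on (100 kb in between), and the quotient is below 1 under 250 kb and above 1 in all shaded ranges of both pairs.

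Most of the very long loops were also stronger in the mutant lines, in sets that were chosen on these same strengths. Within each pair, all loops among the 100000 strongest of either line were merged, and where a list lacked a loop, its lowest strength stood in (4.14 in H4 against 4.44 in H4 88-1 and 4.49 in 42MGBA against 4.28 in 42MGBA 53-1). The merged set of the H4 pair held 5133 very long loops. Of these, 3906 (76.1%) were weaker in H4 88-1, beside 41.9% of all merged loops and 54.5% of loops of 500 kb to 1 Mb. The median log2 ratio of H4 88-1 over H4 for the very long loops was -0.26 (quartiles -0.45 and -0.01). It was 0.07 over all merged loops and -0.04 over loops of 500 kb to 1 Mb. The merged set of the 42MGBA pair held 3775 very long loops. Of these, 2807 (74.4%) were weaker in 42MGBA 53-1, beside 61.3% of all merged loops and 75.8% of loops of 500 kb to 1 Mb. The median log2 ratio of 42MGBA 53-1 over 42MGBA for the very long loops was -0.30 (quartiles -0.59 and 0.01). It was -0.11 over all merged loops and -0.27 over loops of 500 kb to 1 Mb. The very long loops thus lay further from the class just below them in the H4 pair than in the 42MGBA pair. Of the 5133 loops, 2539 were merged through H4 alone, and of the 3775 loops, 1568 through 42MGBA alone. The shares of weaker loops and the medians therefore restate the counts above in part. Of the very long loops of the H4 pair, 757 were absent from the list of H4 88-1 and 36 from that of H4. Of those of the 42MGBA pair, 688 were absent from the list of 42MGBA 53-1 and 71 from that of 42MGBA. For these, the ratio understates the difference.

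Loops specific to 1 line of a pair were called by regressing the strength in the corrected line on that in the mutant line over all merged loops and taking residuals in the outer 5% of a normal distribution, expressed as z-scores. This call ranks loops within a pair and is not a test against replicates. The residuals are differences in strength and not ratios. A strong loop can therefore pass the cutoff with a log2 ratio at which a weaker loop does not. In the H4 pair, 488 of the 5133 very long loops (9.51%) were specific to H4, against 2.17% of all merged loops, and 8 (0.156%) were specific to H4 88-1, against 1.94%. In the 42MGBA pair, 269 of 3775 (7.13%) were specific to 42MGBA, against 2.45% of all merged loops, and 86 (2.28%) were specific to 42MGBA 53-1, against 1.61%. The share specific to the mutant line increased from class to class of distance in both pairs. It was 0.853% below 250 kb and 3.71% at 500 kb to 1 Mb in the H4 pair, and 0.816% and 5.33% in the 42MGBA pair. The share specific to the corrected line decreased with distance in the H4 pair. In the 42MGBA pair it decreased to 0.896% at 500 kb to 1 Mb and was higher, at 2.28%, for the very long loops.

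**Figure D2:**
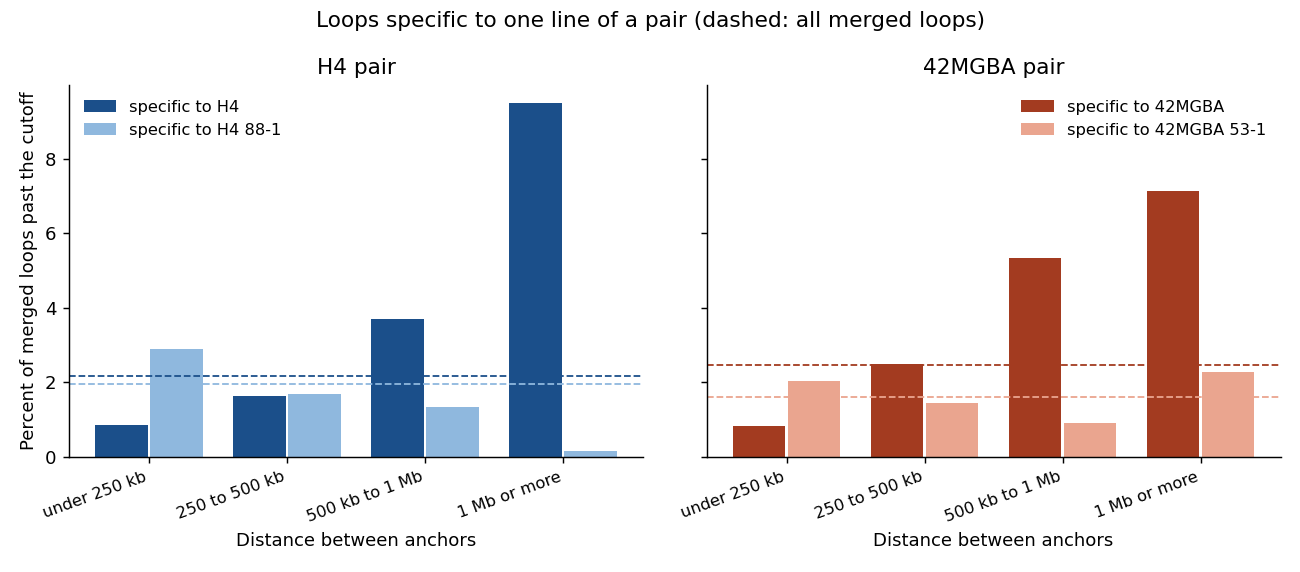
Percent of the merged loops of each pair that were specific to the mutant line (dark bars) or to the corrected line (light bars), by the distance between anchors; dashed lines give the percent over all merged loops. The mutant-specific share is highest at 1 Mb or more in both pairs, at 9.51% and 7.13%, and the share specific to H4 88-1 is lowest there, at 0.156%.

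Very long loops came in dense patches rather than singly. When loops were joined wherever both of their anchors lay within 10 kb, the 6988 loops formed 371 groups, of which 37 held a single loop. The median group held 8 loops and the largest 607, and the 10 largest groups together held 1876 loops (26.8%). Neighbouring loops of a group are not independent measurements, and each group is therefore described below by its strongest loop in any of the 4 lines. A loop merged through 1 line alone tends to be stronger in that line, so counts of weaker or stronger loops within a group only describe it. The 488 loops specific to H4 fell into 55 groups and the 8 specific to H4 88-1 into 3. The 269 specific to 42MGBA fell into 45 groups, whereas 47 of the 86 specific to 42MGBA 53-1 lay in 1 group, at SEMA3D on chromosome 7. A total of 178 groups were among the strongest loops of 1 or both mutant lines and of no corrected line, and 25 were among those of 1 or both corrected lines and of no mutant line. Of the 371 groups, 152 were found only in the H4 lines, 99 only in the 42MGBA lines and 54 in all 4 lines. Groups were not formed over loops of all distances, so these counts have no share to set beside them. Counted as loops, 28.9% were among the strongest of H4 alone and 13.3% of 42MGBA alone, beside 10.5% and 9.42% at all distances. For H4 88-1 alone and 42MGBA 53-1 alone, the shares were 2.62% and 5.07%, beside 9.38% and 11.8%. For all 4 lines the share was 11.4%, beside 18.4%.

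The strongest very long loop of any line joined BCL6, which encodes a transcriptional repressor, with TPRG1 on chromosome 3. Its anchors lay at chr3:187455765-187460503, in an intron of BCL6 within 3 kb of a start site, and at chr3:188669552-188674450, in an intron of TPRG1, 1209 kb away. A start site is here that of any annotated transcript of a protein-coding gene, and it can lie far from the 5′ end of the gene. The strength of the loop was 35.5 in H4 against 28.8 in H4 88-1 and 15.7 in 42MGBA against 11.1 in 42MGBA 53-1, which made it the strongest very long loop of H4 and of H4 88-1. Both corrected lines were below their parental line, with log2 ratios of -0.30 and -0.50. The group held 104 loops, all of them among the strongest of H4, of which 68 were so in H4 88-1, 26 in 42MGBA and 16 in 42MGBA 53-1. Of the 104 loops, 103 were weaker in H4 88-1 than in H4, and all 26 merged in the 42MGBA pair were weaker in 42MGBA 53-1. A second group, with 24 loops, joined transcript starts of BCL6 and TPRG1 over 1397 kb. These starts lay 7.75 kb and 188 kb from the 5′ ends of the genes. The strongest loop of this group had strengths of 8.73 in H4, 6.16 in H4 88-1 and 4.97 in 42MGBA, and that loop was absent from the list of 42MGBA 53-1.

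IGFBP3, which encodes a secreted protein that binds insulin-like growth factors, carried the largest group. The strongest loop joined chr7:45958192-45962884, over an exon and within 3 kb of a start site of IGFBP3, with chr7:47125335-47129869, which is intergenic, over 1162.5 kb. Its strength was 30.5 in H4 against 25.3 in H4 88-1 and 16.6 in 42MGBA against 10.4 in 42MGBA 53-1. The group held 607 loops, of which 594 were among the strongest of H4, 484 of H4 88-1, 150 of 42MGBA and 140 of 42MGBA 53-1. Its left side covered 131 kb and its right side 241 kb, so that any of many neighbouring anchors on the left was paired with many on the right. In the H4 pair, 446 of the 607 loops were weaker in H4 88-1, with a median log2 ratio of -0.12, and 53 were specific to H4. Of the 176 merged in the 42MGBA pair, 130 were weaker in 42MGBA 53-1, with a median of -0.17, and 11 were specific to 42MGBA. The anchor with the most very long partners of the whole data set lay here, at chr7:45962885-45967853, with 58 partners, of which 58 were among the strongest of H4 and 8 of 42MGBA 53-1. The neighbouring anchor over IGFBP3 had 55 partners, and another, with 44, also lay at IGFBP3. The remaining 2 of the 5 anchors with the most partners were at PLPP3 on chromosome 1, with 50 and 47. PLPP3 encodes a membrane phosphatase for lipid phosphates, and its anchors were partnered mostly in 42MGBA, with 50 and 45 loops against 16 each in 42MGBA 53-1. The median anchor of a very long loop had 3 partners, and 617 of the 2922 anchors had 1.

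DGKB, which encodes a diacylglycerol kinase, lay at an anchor of the strongest loop of 9 groups with 376 loops in all, and H4 was the highest line in each of the 9. The strongest ran from chr7:13320866-13325847, which is intergenic, to chr7:14726218-14731063, in an intron of DGKB, over 1400.4 kb. Its strength was 26.5 in H4 against 19.1 in H4 88-1 and 12.2 in 42MGBA against 8.04 in 42MGBA 53-1. It had the largest z-score toward H4 of any group, -4.92, and 56 of its 214 loops were specific to H4, more than in any other group. In the H4 pair 212 of 214 loops were weaker in H4 88-1, and in the 42MGBA pair all 21 merged loops were weaker in 42MGBA 53-1. A further group, with 30 loops, ran rightward over 1349 kb from the start of a DGKB transcript, 255 kb from the 5′ end of the gene, with strengths of 14.02, 7.51 and 6.74 in H4, H4 88-1 and 42MGBA, and was absent from the list of 42MGBA 53-1. Its log2 ratio in the H4 pair was -0.90, and 16 of the 29 merged loops were specific to H4.

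The group at SEMA3D, which encodes a secreted semaphorin that guides axons, went the other way in the 42MGBA pair. Its strongest loop joined chr7:83561605-83566516, which is intergenic, with chr7:84648064-84652982, over an exon of SEMA3D, 1081.5 kb apart, and its anchors held exact convergent motifs. Its strength was 22.0 in H4 against 23.1 in H4 88-1 and 12.4 in 42MGBA against 19.9 in 42MGBA 53-1, which made it the strongest very long loop of 42MGBA 53-1. The log2 ratio was 0.68 in the 42MGBA pair and 0.07 in the H4 pair. Of the 146 loops of this group merged in the 42MGBA pair, 113 were stronger in 42MGBA 53-1 and 47 were specific to it. In the H4 pair, the strongest loop and the group as a whole parted: 116 of 162 loops were weaker in H4 88-1, 18 were specific to H4 and 3 were specific to H4 88-1. Without chromosome 7, 38 of 3270 very long loops (1.16%) were specific to 42MGBA 53-1, against 1.49% of all merged loops. The share also lay below that of all merged loops when the 200000 strongest were merged (1.86% against 2.02%). It lay near that of all merged loops in a regression with an intercept (2.755% against 2.578%) and with z-scores of the log2 ratio (1.59% against 1.51%). The excess remained with the 50000 strongest (3.18% against 1.64%) and with absent loops left out (2.55% against 1.89%). It also remained without loops that span an assembly gap (2.45% against 1.61%). With a cutoff at the outer 1% of a normal distribution, the shares were 1.17% against 0.379%.

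FGGY, which encodes a carbohydrate kinase, carried the strongest very long loop of 42MGBA. It joined chr1:59202928-59207851 with chr1:60221702-60226507, over an exon of FGGY, 1014 kb apart. Its strength was 17.9 in H4 against 17.3 in H4 88-1 and 20.7 in 42MGBA against 17.2 in 42MGBA 53-1, so that the 4 lines lay closer together than for any other of the 5 strongest groups. Of its 165 loops, 1 was specific to H4 and none to any other line. The next group, on chromosome 16, had no protein-coding gene at either anchor of its strongest loop, from chr16:21589072-21594026 to chr16:22699555-22704553, with strengths of 18.5 in H4 against 17.9 in H4 88-1 and 13.3 in 42MGBA against 15.8 in 42MGBA 53-1.

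Besides the loop at SEMA3D, those at PLK2 and HTR7 were stronger in both corrected lines. At PLK2, which encodes a polo-like kinase, the loop from chr5:56591192-56596154 to chr5:57755970-57760431 spanned 1159.8 kb and had a strength of 14.5 in H4 against 17.3 in H4 88-1 and 16.0 in 42MGBA against 17.0 in 42MGBA 53-1. At HTR7, which encodes a serotonin receptor, the loop from chr10:91551237-91555967 to chr10:92620617-92625370 spanned 1065 kb and had a strength of 12.8 in H4 against 15.7 in H4 88-1 and 9.43 in 42MGBA against 11.7 in 42MGBA 53-1. In the PLK2 group 41 of 51 merged loops were stronger in H4 88-1 and 28 of 39 in 42MGBA 53-1. In the HTR7 group these numbers were 30 of 33 and 14 of 21. Neither strongest loop passed the cutoff for a specific loop in either pair. The log2 ratios in the H4 and the 42MGBA pair were 0.26 and 0.09 at PLK2 and 0.30 and 0.31 at HTR7.

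The remaining 2 of the 10 strongest groups differed in which system carried them. The loop from an exon of SLC30A7, which encodes a zinc transporter of the secretory pathway, spanned 1509.7 kb, from chr1:101435679-101440587 to chr1:102950317-102954990. It was absent from the lists of H4 and H4 88-1 and had a strength of 13.2 in 42MGBA and 16.8 in 42MGBA 53-1. Adjacent groups behaved alike. In this region of chromosome 1, 126 very long loops in 8 groups were found, of which none was among the 300000 strongest of either H4 line, while 71 were among the 100000 strongest of 42MGBA and 123 among those of 42MGBA 53-1. They included a group at the start of DPH5, an enzyme of diphthamide synthesis, with strengths of 11.2 in 42MGBA and 14.1 in 42MGBA 53-1 over 1466 kb, and one with no gene at its anchors, with 10.1 and 14.8 over 1379.9 kb. The loop at INHBA, which encodes a subunit of activins, joined an intron of SUGCT, chr7:40367801-40372692, with the INHBA start, chr7:41744914-41749803, over 1372 kb. Its strength was 16.4 in H4 against 12.8 in H4 88-1 and 9.03 in 42MGBA against 5.56 in 42MGBA 53-1. Its group was mixed in the H4 pair, where 57 of 128 loops were weaker in H4 88-1, and was weaker in 42MGBA 53-1 for 44 of 45 loops.

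**Figure D3:**
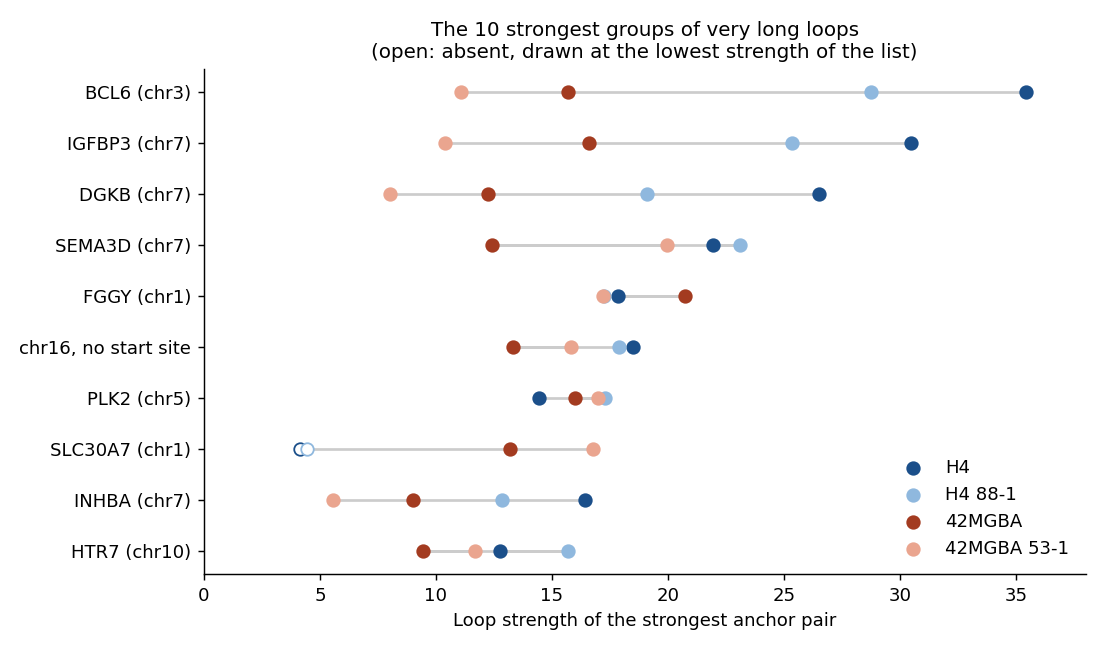
Loop strength (x axis) of the strongest loop of each of the 10 strongest groups of very long loops (y axis, named by a gene at an anchor) in the 4 cell lines; open symbols mark a loop absent from a list, drawn at the lowest strength of that list. H4 is highest at BCL6, IGFBP3, DGKB and INHBA and 42MGBA 53-1 lowest there, while 42MGBA 53-1 exceeds 42MGBA at SEMA3D, on chromosome 16, at PLK2, at SLC30A7 and at HTR7.

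Beyond the strongest groups, those with the largest z-scores toward H4 were, besides DGKB and BCL6, a group at DLX5 and an intergenic group, both on chromosome 7. DLX5 encodes a homeodomain transcription factor, and its loop reached 1107 kb into an intron of DYNC1I1, which encodes a subunit of dynein. Its strength was 11.7 in H4 against 5.52 in H4 88-1 and 5.98 in 42MGBA against 6.88 in 42MGBA 53-1. In the H4 pair, DLX5 had a z-score of -3.95 with a log2 ratio of -1.08, and BCL6 one of -4.62 with -0.30. All 43 loops of the DLX5 group were weaker in H4 88-1, and 15 were specific to H4. All 43 were among the strongest of H4 and 1 among those of H4 88-1, so that the merging favoured this direction. The intergenic loop, from chr7:81125669-81130153 to chr7:82354833-82359619 over 1225 kb, had a strength of 13.4 in H4 against 7.39 in H4 88-1 and 4.66 in 42MGBA against 7.42 in 42MGBA 53-1. All of its 39 merged loops were weaker in H4 88-1, and all 7 merged in the 42MGBA pair were stronger in 42MGBA 53-1. Of the 39 loops, all were among the strongest of H4 and 5 among those of H4 88-1. The 7 were merged through 42MGBA 53-1 alone.

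Toward H4 88-1, the largest z-score was 2.64, at a loop between an exon of NAALADL2 and an intron of TBL1XR1, which encodes a subunit of a corepressor complex. Its strength was 8.91 in H4 88-1, and it was absent from the 3 other lists. It was the only group whose strongest loop passed the cutoff toward H4 88-1. The next 4 were an intergenic loop on chromosome 17, with 7.03 in H4 and 9.89 in H4 88-1, a loop at TMEM170B, and the loops at HTR7 and PLK2, with z-scores between 1.35 and 1.47. At TMEM170B the strength was 7.17 in H4 against 9.99 in H4 88-1 and 9.06 in 42MGBA against 4.79 in 42MGBA 53-1, so that the pairs went in opposite directions.

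Toward 42MGBA, the largest z-score was -3.83, at GRB14, which encodes an adaptor of the insulin receptor. The loop joined chr2:164010909-164015851 with chr2:165345940-165350879, at the 3′ end of GRB14 and the start of one of its transcripts, 127 kb from the 5′ end of the gene, over 1330.1 kb. Its strength was 9.38 in H4, 5.83 in H4 88-1 and 11.3 in 42MGBA, and the loop was missing from the list of 42MGBA 53-1. All 62 merged loops of the group were weaker in 42MGBA 53-1 and 57 of 58 were weaker in H4 88-1, and 31 and 12 loops were specific to the mutant line of the respective pair. All 62 were merged through 42MGBA alone, which favours this direction. At PDGFRA, a receptor tyrosine kinase gene often amplified in GBM, a loop to an intron of SCFD2 over 1022 kb had a strength of 9.90 in H4, 8.11 in H4 88-1 and 10.6 in 42MGBA and was absent from the list of 42MGBA 53-1. All 15 merged loops of this group were weaker in 42MGBA 53-1, and all 15 were merged through 42MGBA alone. At SULF1, which encodes a sulfatase of heparan sulfate, a loop to an intron of C8orf34 had a strength of 5.42 in H4 against 5.10 in H4 88-1 and 12.2 in 42MGBA against 5.74 in 42MGBA 53-1, and all 56 loops of the group were weaker in 42MGBA 53-1. These 56 loops too were merged through 42MGBA alone. The 2 remaining groups lay on chromosome 20, without a gene at the anchors of their strongest loops. These loops had strengths of 10.8 and 10.7 in 42MGBA, and both loops were absent from the list of 42MGBA 53-1.

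Toward 42MGBA 53-1, the largest z-scores after SEMA3D were at NNT, which encodes a mitochondrial transhydrogenase, and in the chromosome 1 region around SLC30A7 and DPH5. The NNT loop spanned 1142 kb, and its strength was 5.803 in H4, 4.77 in 42MGBA and 10.5 in 42MGBA 53-1, and no value was listed in H4 88-1. All 20 merged loops of this group were stronger in 42MGBA 53-1, and 9 were specific to it. All 20 were merged through 42MGBA 53-1 alone.

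The systems shared a part of their very long loops. The loops merged in both pairs were 37.4% of the very long loops of the H4 pair and 50.9% of the ones of the 42MGBA pair, beside 52.8% and 52.1% for loops of all distances. The pairs share no libraries. Among the 1920 very long loops merged in both pairs, 1000 (52.1%) were weaker in both corrected lines and 208 (10.8%) were stronger in both, beside 28.0% and 21.4% of the 68322 loops of all distances merged in both pairs. Taken singly, 1244 (64.8%) were weaker in H4 88-1 and 1468 (76.5%) in 42MGBA 53-1, beside 38.3% and 68.2%, and whether the pairs coincided more than these shares imply was not tested. Of the 1920, 468 were stronger in H4 88-1 and weaker in 42MGBA 53-1 and 244 the reverse, beside 27524 and 7063 of the 68322. A total of 51 loops (2.66%) were specific to the mutant line in both pairs, beside 0.250% at all distances, and 3 (0.156%) to the corrected line in both, beside 0.119%. A further 9 (0.469%) were specific to H4 and to 42MGBA 53-1, beside 0.0585%. Reduced to groups, 102 were merged in both pairs with their strongest loop, of which 66 were weaker in both corrected lines and 7 were stronger in both. These counts lean toward the mutant lines by the way the loop was chosen, since the strongest loop was highest in a mutant line in 307 of the 371 groups (82.7%). By rank alone, 259 very long loops (3.71%) were among the 100000 strongest of H4 and 42MGBA and of neither corrected line, and 20 (0.286%) were among those of H4 88-1 and 42MGBA 53-1 and of neither mutant line. Over loops of all distances, these shares were 1.51% and 1.32%.

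**Figure D4:**
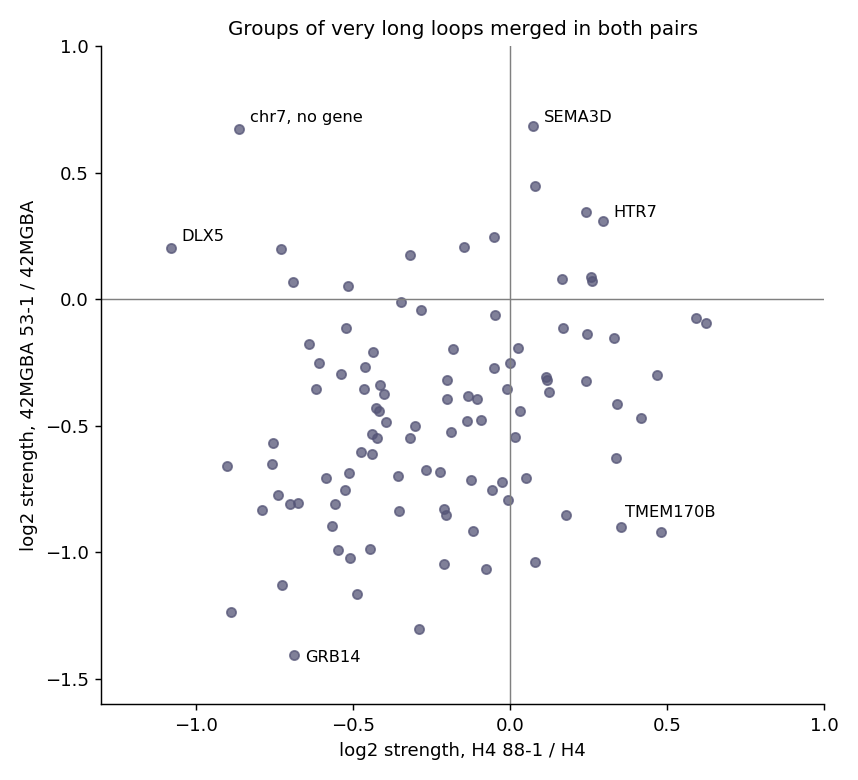
log2 ratio of the strength in the corrected line over that in the mutant line, in the H4 pair (x axis) and the 42MGBA pair (y axis), for the strongest loop of each of the 102 groups merged in both pairs (1 point per group). Of these, 66 lie in the lower left quadrant, weaker in both corrected lines, and 7 in the upper right, with each loop chosen for the highest value in any line; SEMA3D, HTR7, DLX5, GRB14, TMEM170B and an intergenic group on chromosome 7 are named.

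Chromosome 7 held 1864 of the very long loops (26.7%), although it held 9.82% of loops of all distances. Its share was 37.7% of the very long loops among the strongest of H4 and 38.9% of those of H4 88-1, but 12.3% of those of 42MGBA and 16.9% of those of 42MGBA 53-1. A total of 4 of the 10 strongest groups lay on it, and 48 of all 371 groups. Its share of loops rested in large part on few groups, with 607 loops in the strongest group at IGFBP3, 214 in that at DGKB and 169 in that at SEMA3D. The excess in the mutant lines was not confined to this chromosome: without chromosome 7, the count in the mutant line was 1.89 times that in the corrected line in the H4 pair and 1.54 times in the 42MGBA pair. In each pair, the mutant line held more very long loops on 17 of the 19 chromosomes that had at least 20 in both of its lines together. In 42MGBA 53-1 no very long loop was among the strongest on chromosomes 6, 11 and 18, where 42MGBA had 61, 36 and 62.

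The 5 longest groups lay on chromosomes 7 and 15. The longest lay on chromosome 7, with a start site of NXPH1 within 3 kb of at least 1 of its left anchors. Its strongest loop spanned 1987 kb without a gene at either anchor. This loop reached 9.02 in H4 against 6.21 in H4 88-1, without a value in either 42MGBA line. Of the 4 on chromosome 15, 3 lay close together near the centromere. The strongest of these spanned 1943 kb and had a strength of 6.11 in H4 against 8.45 in H4 88-1 and 14.8 in 42MGBA against 11.999 in 42MGBA 53-1, and all 16 loops merged in the H4 pair were stronger in H4 88-1. Their distances included 576623 bases of unknown sequence in hg19. Of all very long loops, 312 (4.46%) spanned such a gap, and 33 lay less than 1 Mb apart once the gap was left out. The last group on chromosome 15 spanned 1973 kb and was found in the 42MGBA lines only, with 7.51 in 42MGBA and 5.43 in 42MGBA 53-1.

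Convergent CTCF motifs were more frequent at the strongest very long loop of a group than at the other very long loops, although most strongest loops lacked them. Exact core motifs were rare, with 5.34% of the anchors of very long loops holding 1 on either strand, beside 5.31% of the anchors of all loops. They were convergent in 20 very long loops (0.286%) and pointed away from each other, or divergent, in none, beside 0.349% and 0.0192% over all loops. With at most 1 letter off, 31.4% of these anchors held a motif, beside 32.6% of those of all loops. Such motifs were convergent in 413 very long loops (5.91%) and divergent in 142 (2.03%). Taking only the strongest loop of each of the 371 groups, 95 (25.6%) were convergent and 6 (1.62%) divergent. Among the 6617 other very long loops, these shares were 4.81% and 2.06%. For the 1648 groups formed in the same way from loops of 500 kb to 1 Mb, 23.3% of the strongest loops were convergent and 1.82% divergent, so that the very long loops did not stand far from the class below them. Among the 10 strongest groups, 5 were convergent, at BCL6, IGFBP3, SEMA3D, PLK2 and HTR7, with the sequences shown above, and none was divergent. The share of convergent groups was 23.6% of the 178 groups found in mutant lines only, 24.0% of the 25 found in corrected lines only and 37.0% of the 54 found in all 4 lines.

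**Figure D5:**
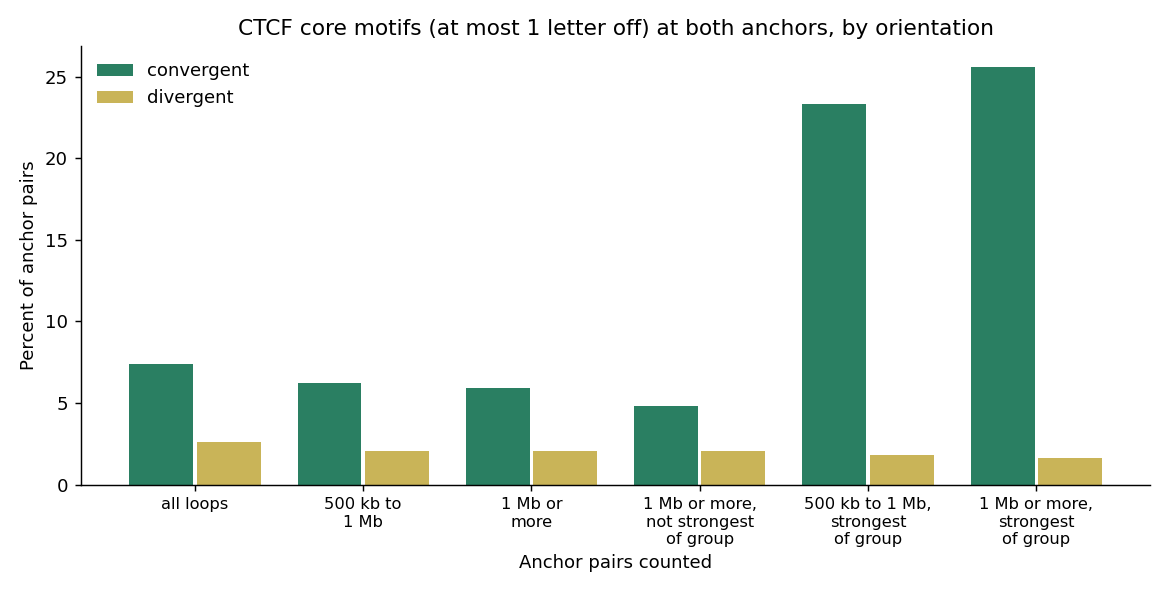
Percent of anchor pairs (y axis) with CTCF core motifs at both anchors, with at most 1 letter off, that are convergent (forward on the left, reverse on the right) or divergent, for the sets of anchor pairs named on the x axis. The convergent share is 5.91% over all very long loops and 25.6% over the strongest loop of each group, while the divergent share stays between 1.62% and 2.61% in all sets shown.

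The groups with exact convergent motifs besides SEMA3D were mostly weaker in the corrected lines. The loop at THSD7A, which encodes a transmembrane protein with thrombospondin repeats, reached 9.97 in H4 and 7.998 in H4 88-1 and was absent from both 42MGBA lists. The loop at ZNF407, a zinc finger gene, spanned 1691 kb and had a strength of 6.34 in H4 against 6.70 in H4 88-1 and 9.31 in 42MGBA against 4.54 in 42MGBA 53-1. The loop at NCAM2, which encodes a neural cell adhesion molecule, spanned 1785 kb and reached 7.51 in H4 and 6.71 in 42MGBA, with none listed in either corrected line. The loop with an anchor next to the start of COL12A1, a collagen gene, had a strength of 4.93 in H4, 6.73 in 42MGBA and 4.37 in 42MGBA 53-1 and was absent from the list of H4 88-1. The sixth group lay at ABRA on chromosome 8, with 13.7 in H4 against 10.8 in H4 88-1 and 10.8 in 42MGBA against 10.8 in 42MGBA 53-1. Its sites were left out of the sequences shown above.

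Very long loops started at genes less often than shorter ones and crossed regions poor in genes. A protein-coding start site lay within 3 kb of an anchor in 31.9% of the very long loops, beside 35.5% at 500 kb to 1 Mb, 53.2% below 250 kb and 45.0% overall. Start sites lay at both anchors in 145 (2.07%), beside 8.12% overall. The median very long loop spanned the starts of 1.48 protein-coding genes per Mb, beside 3.67 over all loops, and the median GC content of its anchors was 39.4%, beside 42.2%. Of the very long loops, 24.4% had an anchor in between that was itself looped to both of their anchors, beside 15.6% at 500 kb to 1 Mb. A start site lay at an anchor of 24.3% of the 259 loops among the strongest of both mutant lines only, and of 29.9% of the 795 among those of all 4 lines.

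Only 7 groups had start sites of protein-coding genes at both anchors of their strongest loop, and none of them held a loop specific to a line. Of all 371 groups, 55 held a loop specific to H4, 3 to H4 88-1, 45 to 42MGBA and 10 to 42MGBA 53-1. The 7 groups are too few to set against these counts. In 2 of the 7, NETO2 with ABCC12 and YARS2 with ALG10, the 5′ ends of genes lay within 3 kb of both anchors, and the others involved starts of further transcripts. The strongest joined NETO2, an auxiliary subunit of kainate receptors, with the transporter gene ABCC12, with strengths of 9.72 in H4 against 8.54 in H4 88-1 and 10.5 in 42MGBA against 7.29 in 42MGBA 53-1. SPAG17, a gene of motile cilia, was joined with the oxidase gene HAO2 in 42MGBA (10.1) and 42MGBA 53-1 (6.49), with a value of 4.16 in H4. YARS2, a mitochondrial tRNA synthetase gene, was joined with ALG10, an enzyme of N-glycosylation, with 8.81 in H4 against 6.90 in H4 88-1 and 7.70 in 42MGBA against 4.31 in 42MGBA 53-1. In all 3, each corrected line was below its parental line where both were listed. The others joined BCL6 with TPRG1 (above), MECR and PTPRU with MATN1 (5.54 in H4 88-1, 8.52 in 42MGBA and 6.94 in 42MGBA 53-1, across 150000 bases of unknown sequence), DMGDH with THBS4 (6.50 in H4 and absent elsewhere), and the shared start region of DAB1 and OMA1 with FGGY (6.35 in 42MGBA, 4.99 in H4 88-1 and 4.46 in 42MGBA 53-1).

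Of the 5970 protein-coding genes with a start site at any loop, 190 (3.18%) had one at a very long loop. Of these 190 genes, 14.2% had a very long loop specific to H4, 9.47% one specific to 42MGBA and 2.63% one specific to 42MGBA 53-1. Of the 36 genes of the lists below that were at a very long loop, 24 had their 5′ end within 3 kb of the anchor, while HOXA3, HOXD10, TBX3, TFAP2A, SUZ12, NTRK3, SEMA3D, COL1A2, VCAN, ID2, WNT5B and PIK3R1 were there with the start of another transcript. Of the 211 developmental transcription factors listed, 114 were at a loop and 13 of these at a very long loop (11.4%). After DLX5, the strongest loops of this list included those of the HOXD cluster, whose genes pattern the body axis and limbs. The loop of HOXD8 spanned 1018 kb, with strengths of 8.46 in H4 against 7.76 in H4 88-1 and 9.05 in 42MGBA against 5.51 in 42MGBA 53-1, and HOXD9, at the neighbouring anchor, had 8.90, 8.02, 7.87 and 5.30. TBX3, a T-box factor, had 6.68, 7.31, 8.95 and 7.13. TFAP2B, an AP-2 factor, had 7.67 in H4, 5.23 in H4 88-1 and 5.80 in 42MGBA and was absent from the list of 42MGBA 53-1. Of the 13 genes, 1, DLX5, had a loop specific to a line, which was H4, a number too small to set against the shares over all 190 genes.

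The other lists held few genes each. Of 6 cohesin and loop extrusion genes at a loop, none was at a very long loop. Of 14 Polycomb subunit genes, 1 (7.14%) was, SUZ12, with a strength of 6.99 in H4 and absent from the 3 other lists. Of 13 genes of receptor tyrosine kinases and their ligands, 3 (23.1%) were, which besides PDGFRA were the ephrin receptor gene EPHA4, with 5.77 in H4, 8.12 in 42MGBA and 6.01 in 42MGBA 53-1, and the neurotrophin receptor gene NTRK3, with 5.07 in 42MGBA and 6.06 in 42MGBA 53-1.

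Of 22 axon guidance genes at a loop, 5 (22.7%) were at a very long loop, and none of these 5 had a line-specific one, again too few to read against all genes. NRP2, a semaphorin receptor gene, had a strength of 6.57 in H4 against 5.94 in H4 88-1 and 7.07 in 42MGBA against 8.15 in 42MGBA 53-1. EPHB1 had 7.99, 7.04 and 5.82 in H4, H4 88-1 and 42MGBA, and SLIT2, a repulsive guidance cue, had 6.67 in H4 and 6.98 in 42MGBA and was absent from both corrected lines. The start of a SEMA3D transcript, 144 kb from the 5′ end of the gene, had 5.7998, 6.76, 4.92 and 6.94 in the 4 lines, higher in each corrected line than in its parental line, and NRP1 had 4.63 in H4 and 6.79 in 42MGBA and was absent from both corrected lines. Of 15 neuronal adhesion genes, 2 (13.3%) were at a very long loop, NCAM2 (above) and the cadherin gene CDH11, with 4.79 in H4 88-1 and 6.56 in 42MGBA.

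Of 27 genes of the extracellular matrix at a loop, 5 (18.5%) were at a very long loop. ADAMTS1, a secreted protease gene, had a strength of 5.19 in H4, 11.9 in 42MGBA and 10.4 in 42MGBA 53-1 and was absent from the list of H4 88-1. COL12A1 had 5.32 in H4 against 5.69 in H4 88-1 and 10.1 in 42MGBA against 5.78 in 42MGBA 53-1. Its z-score was -2.21 in the 42MGBA pair. COL1A2, a collagen I gene, had 8.61 in H4 against 4.79 in H4 88-1, a z-score of -2.52, and was absent from both 42MGBA lists. The proteoglycan gene VCAN had 7.70, 8.45, 4.93 and 4.43 in the 4 lines, and HAPLN1 had 5.84 in H4 only.

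Of 30 ligands and regulators of TGF-beta, BMP and WNT signaling, 5 (16.7%) were at a very long loop. Besides INHBA, these were FZD8, a WNT receptor gene, with 8.57 in H4 against 9.87 in H4 88-1 and 11.6 in 42MGBA against 12.04 in 42MGBA 53-1, and TGFB2, with 7.56 in H4 and 5.41 in H4 88-1. ID2, an inhibitor of DNA binding, had 7.71 in 42MGBA and 4.46 in H4 88-1, and WNT5B had 6.10 in H4. Of 12 genes of the cell cycle, p53 and MYC list, 2 (16.7%) were. MYC, which encodes a growth-promoting transcription factor, had a loop of 1940.1 kb with 5.50 in H4, 10.9 in 42MGBA and 7.02 in 42MGBA 53-1 and was absent from the list of H4 88-1. Of the 29 very long loops at MYC, 1 was specific to H4 and 4 to 42MGBA. PIK3R1, a regulatory subunit of phosphoinositide 3-kinase, had 7.45, 5.00, 9.38 and 6.50 in the 4 lines, with both corrected lines below their parental line.

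The last of the 5 largest groups lay at TTC33 on chromosome 5 and held no loop specific to a line. The strongest of its 155 loops spanned 1149.9 kb, with strengths of 9.23 in H4 against 10.1 in H4 88-1 and 15.01 in 42MGBA against 11.6 in 42MGBA 53-1. In the H4 pair 79 of 131 merged loops were stronger in H4 88-1, and in the 42MGBA pair 92 of 133 were stronger in 42MGBA 53-1, although the strongest loop itself was weaker there.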

How the data were processed

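Hi-C was performed on 8 libraries, 2 replicates of each of 4 cell lines. Per the study's methods, reads were trimmed, aligned to hg19 with Bowtie, restricted to uniquely mapped and deduplicated pairs, corrected for bias with HiCorr and enhanced with LoopEnhance of DeepLoop. The authors pooled both replicates and deposited 1 list of 300000 anchor pairs per line. The values the authors deposited are a signal called loop strength, without read counts, so that depth, counting error and the spread between replicates are unknown. The tags of the parental lists read WT although the labels give these lines as STAG2-mutant, and the labels were followed. Sequencing of RNA (12 libraries) was not analysed here.

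Lists were joined by anchor coordinates. A loop absent from a list took the lowest strength of that list. Specific loops were called from the residuals of a regression through the origin, with a z-score cutoff of 1.96 on either side, over all merged loops of a pair. Groups join loops whose anchors both lie within 10 kb. Start sites of all transcripts of protein-coding genes came from GENCODE release 44 in hg19 coordinates and were counted within 3 kb of an anchor. The CTCF core motif of 12 letters was searched in hg19. Restriction sites lay within 5 bases of 54.3% of anchor starts, beside 2.74% at 2000 bases inside, which was the check of the build.

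The groups named were the 10 strongest, the 5 with the largest z-score toward each line, the 5 longest, the 5 largest, those with start sites or exact convergent motifs at both anchors, and up to 5 genes of each of 9 gene lists. Members and lists were chosen with earlier results of these data known. Relaxed motifs, counts by strongest loop of a group and the 10000 and 1000 strongest loops were added after seeing the data. Scripts were tested on simulated data and run in Python 3.11.15 with pandas 2.3.3, numpy 2.4.6, matplotlib 3.10.9 and scipy 1.17.1.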

Additional observations from a re-analysis of the deposited data

Results flagged for a closer look

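Of the 102 groups merged in both pairs, 9 had log2 ratios of opposite sign and at least 0.2 in size in the H4 and the 42MGBA pair, of which 5 belong to the groups named by the rule. Each pair is 1 list against 1 list, and the difference between pairs was not tested. The log2 ratio of the corrected over the mutant line at DYNC1I1 and DLX5 came to -1.08 for H4 88-1 over H4 and to 0.20 for 42MGBA 53-1 over 42MGBA. At the intergenic group of chromosome 7 near 81 to 82 Mb it was -0.86 and 0.67. At TMEM170B it was 0.48 and -0.92. Both groups of chromosome 15 next to an assembly gap were higher in H4 88-1 and lower in 42MGBA 53-1, with 0.34 and -0.41 in the group of 48 loops and 0.47 and -0.30 in that of 96. The remaining 4, named here after their values were seen, were at PLPP3 (0.35 and -0.90), at NYAP2 and COL4A4 (0.42 and -0.47), on chromosome 12 (0.34 and -0.63) and at CLIC6 and RUNX1 (0.24 and -0.32). A total of 9 loops were specific to H4 in one pair and to 42MGBA 53-1 in the other, which is 0.469% of the 1920 merged in both pairs, beside 0.0585% at all distances.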

How the results depend on the processing

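Of 111 alternative values, 76 stayed within a limit, 34 moved beyond it and 1 turned around. The limit was the 95% Wilson interval for quotients of counts, start sites and motifs, and 1.5 times for specific shares and groups. For the median log2 ratios it was 1 SD over chromosomes (0.162 for H4 and 0.246 for 42MGBA). The Wilson intervals treat loops as independent, which neighbouring loops are not, and a loop of both lists of a pair entered both counts of a quotient. These intervals served only as a fixed limit and do not measure error. The medians stayed below 0 under all 11 alternatives each. They ran from -0.41 (strongest loop of each group, chosen on its value) to -0.17 (200000 strongest) for H4, and from -0.47 (strongest loop of each group) to -0.19 (strengths divided by the median over merged loops) for 42MGBA, where leaving out absent loops gave -0.20. The quotient of counts, mutant over corrected, was 2.09 in the H4 pair at 1500 kb or more, 1.76 among the 10000 and 1.51 among the 1000 strongest loops. In the 42MGBA pair it was 1.70 at 1200 kb or more, 1.57 among the 200000 strongest, 1.60 at the highest when a chromosome was left out, 1.14 among the 10000 strongest and 0.391 among the 1000 strongest, where it was turned around on counts of 9 and 23; the cause was not tested. At 1500 kb or more, 5.84% of loops were specific to H4, 0.467% to H4 88-1 and 4.55% to 42MGBA, and at 1200 kb or more 1.49% to 42MGBA 53-1. Over all merged loops, these shares were 2.17%, 1.94%, 2.45% and 1.61%. With a cutoff at the outer 1% of a normal distribution, these shares were 3.37%, 0.0584%, 2.62% and 1.17%, fewer by construction. The share specific to H4 88-1 was 0.623% in a regression with an intercept, beside 2.88% of all merged loops. It was 0.104% at the lowest when a chromosome was left out, beside 1.91%. The share specific to 42MGBA 53-1 was 1.16% without chromosome 7, which was also the lowest, beside 1.49%. The number of groups was 676 with joining at 5 kb, 190 at 1200 kb or more, 61 at 1500 kb or more and 232 from the 50000 strongest. The share with a start site was 28.2% at 1500 kb or more, 34.3% from the 50000 strongest, 29.8% from the 200000 strongest, 17.2% inside the anchor, 49.99% within 10 kb and 36.7% over the strongest loop of each group. Convergent motifs were found in 0.598% at 1500 kb or more, 0.143% with a motif of 14 letters, 5.91% with 1 letter off, 1.62% over the strongest loop of each group and 25.6% with both. No paired analysis was possible because each cell line is 1 pooled list, and for the same reason no replicate could be left out. Loops below the 300000 strongest of a list have no value, which limits every ratio with an absent loop.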
